A study of Homo sapiens and synthetic construct with 52 samples.

Results

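The guides described here target the genes of the proteasome: every CRISPR interference (CRISPRi) guide whose name begins with PSMA, PSMB, PSMC, PSMD, PSME or PSMG followed by digits. The name rule found 250 of the 103074 guides in the library. They belong to 47 of 18788 genes and, because PSMB6, PSMB9 and PSMG3 each have guides at separate start sites P1 and P2, to 50 of 20373 gene start sites. Each start site has 5 guides. The rule uses no measured value.

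The study compared a genome-wide guide library recloned by a modified protocol (LGR) with the earlier library of the same top 5 guides per start site (legacy), first as plasmids and then in pooled screens. All screens used K562, a chronic myelogenous leukaemia line, expressing dCas9-KRAB, a nuclease-dead Cas9 fused to a repressor domain that lowers transcription near the site a guide binds. K562 identity cannot be read from guide counts. Each value is a count of sequencing reads matching a guide and was compared after scaling to the library. A lower scaled count over time means that cells carrying that guide became a smaller share of the culture. Loss and depletion below mean such a fall in share, and numbers of cells were not measured.

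The groups were as follows. The LGR and the legacy plasmid were each sequenced once. The LGR survival screen at 1000-fold cell coverage (1000X) had 1 starting library (T0) and 3 libraries after 7 days of culture (Tf). The LGR survival screen at 100X had 2 T0 and 4 Tf libraries. The dasatinib screen was run at 100X with either library: 2 T0 libraries collected 7 days after infection, 2 libraries after 0.75 nM dasatinib (DASA) and 2 after 0.01% DMSO, with 72 h of exposure and 6 days of recovery. Dasatinib inhibits the ABL and SRC family kinases, and K562 growth depends on BCR-ABL. A titration of 10X, 50X, 100X and 200X had 2 cultures per coverage and library. Puromycin selected the infected cells in every arm. In the dasatinib screen each library was infected once and then split. The p-values of tests over libraries there measure the spread between cultures and not between infections. The paper calls the 2 replicates it compared in the 100X survival screen technical. Nothing used here says that replicates of either survival screen came from separate infections. Their p-values of tests over libraries may likewise measure technical spread only.

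The proteasome degrades proteins tagged with ubiquitin. Its barrel-shaped core particle is built of stacked alpha and beta rings, with the proteolytic sites on beta subunits, and it is capped by a regulatory particle whose base of AAA-ATPases unfolds the substrate and whose lid removes the ubiquitin chain. Interferon induces replacement beta subunits that form the immunoproteasome, the PSME proteins are alternative caps, and dedicated chaperones assist assembly. Dividing cells generally require the core, the base and the lid, and plasma cell tumours are treated with inhibitors of the core.

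The 47 genes were ordered by role. The core holds the alpha ring (PSMA1 to PSMA7) and the beta ring (PSMB1 to PSMB7, 8 start sites). The base holds the ATPases (PSMC1 to PSMC6) and the non-ATPases PSMD1, PSMD2 and PSMD4. The lid group holds 8 genes (PSMD3, PSMD6, PSMD7, PSMD8, PSMD11, PSMD12, PSMD13 and PSMD14). These 32 start sites with 160 guides are called the structural start sites below. The other 18 start sites with 90 guides are the immunoproteasome (PSMB8, PSMB9, PSMB10), the PSME caps (PSME1 to PSME4), the PSMG core chaperones (PSMG1 to PSMG4), the base chaperones (PSMD5, PSMD9, PSMD10) and the tissue-restricted core subunits PSMA8 and PSMB11.

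A CRISPRi guide acts near the transcription start, so the promoters of 4 members on which the results below turn are shown: PSMD7 and PSMA3, which had the lowest phenotypes at 1000X, PSMB4, whose guides were not called lower in any comparison, and PSMG4, 3 of whose guides were higher with dasatinib than with DMSO in the legacy screen. The 250 bases before the RefSeq start (GRCh38.p14, plus strand, 5′ to 3′) are PSMD7 chr16:74296564-74296813, PSMA3 chr14:58244593-58244842, PSMB4 chr1:151399323-151399572 and PSMG4 chr6:3258697-3258946. Capitals mark matches to the motifs named in the next paragraph.
PSMD7: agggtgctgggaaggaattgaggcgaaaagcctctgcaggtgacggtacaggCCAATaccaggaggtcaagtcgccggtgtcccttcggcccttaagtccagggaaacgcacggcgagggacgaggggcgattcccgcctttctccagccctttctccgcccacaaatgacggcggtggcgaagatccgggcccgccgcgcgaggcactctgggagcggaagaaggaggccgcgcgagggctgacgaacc
PSMA3: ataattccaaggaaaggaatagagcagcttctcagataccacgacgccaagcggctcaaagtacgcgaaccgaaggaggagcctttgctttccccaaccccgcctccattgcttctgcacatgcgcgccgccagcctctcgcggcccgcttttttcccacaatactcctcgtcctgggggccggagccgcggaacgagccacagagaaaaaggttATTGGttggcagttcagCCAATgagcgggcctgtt
PSMB4: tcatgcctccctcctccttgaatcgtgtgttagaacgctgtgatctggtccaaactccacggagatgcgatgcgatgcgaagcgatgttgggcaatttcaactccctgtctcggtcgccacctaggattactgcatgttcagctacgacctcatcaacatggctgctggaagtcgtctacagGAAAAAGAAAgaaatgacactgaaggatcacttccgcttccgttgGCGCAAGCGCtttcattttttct
PSMG4: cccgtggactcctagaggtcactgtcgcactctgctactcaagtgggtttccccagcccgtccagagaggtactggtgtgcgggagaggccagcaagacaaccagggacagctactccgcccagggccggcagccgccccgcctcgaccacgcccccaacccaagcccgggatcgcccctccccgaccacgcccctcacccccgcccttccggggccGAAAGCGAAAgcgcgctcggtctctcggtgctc

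Both strands were searched for the CCAAT box, for the TATA box as TATAAA and for the antioxidant response element as TGACNNNGC. The interferon response element was searched as GAAA and GAAA with any 2 bases between. The element of nuclear respiratory factor 1 (NRF1) was searched as GCGC and TGCGC with any 1 base between. RefSeq held 49 promoters for 41 of the member genes, among 35116 promoters of that length. CCAAT was in 38.8% of the member promoters and in 32% of all promoters. The antioxidant element was in 26.5% against 10.9%, the interferon element in 10.2% against 3.02%, the NRF1 element in 10.2% against 5.07% and TATAAA in 10.2% against 10.7%. Over the 32 promoters of structural genes the antioxidant element was in 15.6% and the NRF1 element in 15.6%. PSMD7 and PSMA3 hold CCAAT, PSMB4 holds the interferon and NRF1 elements and PSMG4 holds the interferon element. Such matches are letters in a window and were not measured as binding sites. Guide sequences are not given in the files used here, so guides are named by the strand and the hg19 position in their names.

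Depth differed between the screens. Totals were 105684438 to 111002750 counts per library in the 1000X screen, 47678549 to 54678272 in the 100X survival screen, 15739255 to 19844033 in the dasatinib screen and 17582032 to 51399251 in the titration. No member guide was at 0 in the plasmids or the survival T0 libraries, 4 to 7 of 250 were at 0 in the 1000X Tf libraries, 27 to 37 in the 100X Tf libraries and 35 to 50 in the DMSO and DASA libraries. Each comparison was tested by guide with edgeR's quasi-likelihood test and by start site with an exact two-sided Mann-Whitney test of its guides against non-targeting guides, both adjusted by the Benjamini-Hochberg method over the whole library at 0.05. The Mann-Whitney test averages the libraries first, so its p-values measure the spread between guides and not between cultures. A start site's phenotype is the mean log2 change, relative to the non-targeting median, of its 3 guides with the largest changes, so it is larger in size than the mean of all 5.

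Over 7 days of culture at 1000X, cells carrying guides against the structural subunits were lost and cells carrying guides against the immunoproteasome were not. The median phenotype was -4.06 for the core, -3.87 for the base and -4.59 for the lid. It was 0.04 for the immunoproteasome, -0.30 for the PSME caps, -0.21 for the PSMG chaperones, -0.02 for the base chaperones and -0.02 for the tissue-restricted subunits, against -0.03 over all start sites. At 100X the core, base and lid medians were -5.10, -4.93 and -5.88, and the immunoproteasome median was 0.00. With the mean of all guides in place of the 3 strongest, the lid medians were -2.92 at 1000X and -3.77 at 100X.

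At 1000X, 129 of 250 member guides fell and 1 rose by edgeR, where 9.07% of all guides fell and 1.08% rose. At 100X, 111 fell and none rose, against 5.68% and 0.0437% of all guides. Of the 160 structural guides, 121 fell at 1000X and 107 at 100X. Of the 90 other guides, 8 and 4 fell. By start site, 25 of 50 were called lower at 1000X, against 7.17% of all start sites, and all 25 were structural. At 100X, 27 were called lower, against 6.61% of all, 25 of them structural. Leaving out T0 library 1 or 2 of the 100X screen lowered its count of called member guides from 111 to 42 or 51. The 1000X test had a single T0 library, assumed to vary like the Tf libraries. None of the 250 member guides passed the test of the difference between the 100X and the 1000X change, and none of all guides did. With an unadjusted p under 0.05, 10 member guides were lower and 2 higher at 100X than at 1000X. The share of all guides at that unadjusted threshold was not counted, so these counts are not read as a difference between the screens.

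The lid gene PSMD7 had the lowest phenotype at 1000X, -6.91 ± 0.80 (SD, n = 3 Tf libraries). Its level, the mean over the 5 guides as a percentage of the plasmid level, was 87.7% in the T0 library and 1.60%, 1.22% and 2.39% in the Tf libraries. At 100X it was 81.5% and 65.0% in T0 and 0.886%, 0.562%, 0.783% and 1.63% in Tf. All Tf libraries lay far below all T0 libraries, and all 5 guides fell in both screens. The minus-strand guide at 74330738 had 775 counts at T0 and 1, 0 and 5 at Tf in the 1000X screen (edgeR log2 change -8.55, adjusted p = 3.56e-16), and 333 and 292 counts at T0 with 0 in each of the 4 Tf libraries at 100X.

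The other lid genes were also lost. PSMD11, a lid scaffold subunit, had a phenotype of -6.49 ± 0.66 at 1000X and -6.13 ± 0.70 at 100X, and PSMD6 had -5.49 ± 0.84 and -6.68 ± 0.12 (SD, n = 3 and n = 4 Tf libraries). PSMD14, the deubiquitinase that releases ubiquitin chains before degradation, had -4.74 ± 0.63 at 1000X with 3 of 5 guides lower and was called there. At 100X its -6.02 ± 0.82 missed the start-site test (adjusted p = 0.148 by the exact Mann-Whitney test) with the same number of guides lower. PSMD13 was the least depleted lid gene, at -1.59 ± 0.08 with 2 guides lower. All 8 lid genes were called at 1000X and 6 of 8 at 100X, where PSMD13 and PSMD14 were not.

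In the alpha ring, which gates entry to the core, all 7 genes were called lower at both coverages, with medians of -4.92 and -5.78. PSMA3 had -6.68 ± 1.76 at 1000X and -7.62 ± 0.83 at 100X. Its level was 84.4% of plasmid in the 1000X T0 library and 1.40%, 3.39% and 5.89% in Tf, without overlap. Of its 5 guides, 4 fell and the minus-strand guide at 58711976, the last of the set by position, had 968 counts at T0 and 909, 1070 and 1002 at Tf. PSMA1 had -6.26 ± 0.65 with all 5 guides lower, and PSMA2 had the smallest phenotype of the ring, -1.76 ± 0.14 with 3.

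In the beta ring some start sites were strongly depleted and others were not called. PSMB2 was at 87.6% of plasmid in the 1000X T0 library and at 1.96%, 2.47% and 1.62% in Tf, and all 5 guides fell. In the 100X screen it was at 76.1% and 88.6% in T0 and at 0.600%, 0.796%, 0.837% and 0.188% in Tf, the lowest mean level of the structural start sites there. PSMB5, which carries the chymotrypsin-like site that bortezomib inhibits, was at 64.8% in T0 and 4.97%, 4.07% and 4.35% in Tf with 4 of 5 guides lower. Its phenotype of -5.64 ± 0.37 missed the start-site test at 1000X (exact Mann-Whitney adjusted p = 0.112) and its -5.50 ± 0.68 passed at 100X. In all, 3 of 8 beta start sites were called at 1000X and 5 of 8 at 100X.

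PSMB6, the caspase-like catalytic subunit, has guides at 2 start sites. Guides of P1 and P2 are 1162 bases apart at the nearest. P1 was at 68.5% of plasmid in the 1000X T0 library and at 7.86%, 9.46% and 7.21% in Tf, whereas P2 was at 100.4% in T0 and at 97.9%, 98.4% and 94.2% in Tf. At 100X, P1 was at 1.07% to 4.52% in the 4 Tf libraries and P2 at 93.3% to 97.4%. The 2 start sites did not overlap in any Tf library, 4 of the 5 P1 guides fell and no P2 guide fell. P1 missed the start-site test at 1000X (exact Mann-Whitney adjusted p = 0.115) and passed at 100X (adjusted p = 0.000943). The P1 guide that did not fall, at 4699482 on the minus strand, had 659 counts at T0 and 820, 769 and 796 at Tf. PSMG3 had the same arrangement, with P1 and P2 guides 570 bases apart: at 1000X, 3 P1 guides and no P2 guide fell.

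PSMB4, a beta subunit without a proteolytic site, stood apart from its ring. It was at 101.9% of plasmid in the 1000X T0 library and at 107.5%, 105.0% and 108.1% in Tf, and at 91.8% to 124.1% in the 100X Tf libraries. None of its 5 guides was called in any of the 9 comparisons, and its level was the highest of all structural start sites in both Tf groups. Its 5 guides spanned 408 bases, from 151372052 to 151372460. Whether these guides lowered PSMB4 RNA was not measured.

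In the base, the ATPases that drive unfolding had a median of -3.81 at 1000X and -4.12 at 100X, with 4 of 6 called each time. PSMC4 was at 65.4% of plasmid in the 1000X T0 library and at 3.45%, 2.52% and 2.51% in Tf, with all 5 guides lower. PSMC5 had -1.86 ± 0.32 at 1000X (exact Mann-Whitney adjusted p = 0.0586) and PSMC3 had -1.16 ± 0.11 there (adjusted p = 0.126). PSMC3 was called at 100X, with -1.55 ± 0.48. The non-ATPases PSMD1, PSMD2 and PSMD4 were called at both coverages. PSMD4, a ubiquitin receptor, had -2.49 ± 0.02 at 1000X, and its 5 guides all fell to between 13.4% and 32.6% of T0.

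Guides can also act on a neighbouring gene. Within 1000 bases of a member's guides lay guides of another gene for 10 start sites, and 2 of these neighbours were called lower at 1000X. The closest pair was PSMC5 and FTSJ3, a ribosome biogenesis factor, with guides 3 bases apart. FTSJ3 had a phenotype of -4.09 and was called, where PSMC5 was not. MRPL32, a mitochondrial ribosomal protein gene whose guides lie 212 bases from those of PSMA2, had -0.79 and was called, as was PSMA2. SS18L1, 342 bases from PSMA7, had -0.10, and SIRT3, 164 bases from PSMD13, had 0.01, and neither was called. For guides this close, loss through the member and loss through its neighbour cannot be told apart.

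Immunoproteasome guides stayed near the plasmid level. PSMB8, the replacement for PSMB5, was at 100.7% of plasmid in the 1000X T0 library and at 102.6%, 107.8% and 108.3% in Tf. PSMB10, the replacement for PSMB7, was at 98.4% in T0 and at 97.8%, 100.3% and 100.3% in Tf. No immunoproteasome guide was called lower at either coverage, and the single member guide called higher at 1000X was a PSMB8 guide, at 32811785 on the plus strand, with 999 counts at T0 and 1359, 1519 and 1672 at Tf (edgeR log2 change 0.56, adjusted p = 0.000183). Its 4 companions were not called.

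Among the PSME caps, PSME3 was the exception in the survival screens and rested there on 1 guide. The minus-strand guide at 40985447 had 958 counts at T0 and 21, 86 and 23 at Tf in the 1000X screen (edgeR log2 change -4.50, adjusted p = 1.4e-13), and 385 and 304 at T0 and 9, 0, 48 and 9 at Tf in the 100X screen. The plus-strand guide at 40985877 had 944 counts at T0 and 982, 919 and 1089 at Tf. The start site had a phenotype of -1.66 ± 0.43 at 1000X and did not pass. PSME1, PSME2 and PSME4 had phenotypes of -0.36, -0.24 and 0.11 with no guide called.

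Of the PSMG chaperones, which assemble the alpha ring in pairs, the partners PSMG3 and PSMG4 were depleted by guide, and PSMG1 and PSMG2 were not. PSMG3 P1 was at 86.7% of plasmid in the 1000X T0 library and at 37.1%, 42.1% and 35.5% in Tf. PSMG4 was at 99.9% in T0 and at 58.8%, 51.7% and 53.8% in Tf, with 4 of 5 guides lower. Both missed the start-site test at 1000X, with exact Mann-Whitney adjusted p = 0.233 and 0.0774. Both passed at 100X, with -2.69 ± 0.43 and -1.62 ± 0.42. PSMG1 was at 98.9% to 106.1% and PSMG2 at 98.6% to 102.2% of plasmid in the 1000X Tf libraries. The base chaperones and the tissue-restricted subunits PSMA8 and PSMB11 had no guide called at either coverage.

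Before the survival screens began, little had been lost. In the 100X survival T0 over the LGR plasmid, 12 member guides were lower and none higher, against 0.889% and 0.0563% of all guides, and 2 start sites were called lower, against 0.0791% of all: PSMC4 at -1.26 and PSMB6 P1 at -1.004. With DESeq2, 2 guides were called instead of 12. The core, base and lid medians were 83.0%, 82.7% and 80.9% of plasmid at 100X T0 and 87.6%, 86.0% and 87.1% in the single 1000X T0 library.

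The dasatinib screen's T0 was collected 7 days after infection, whereas the survival screens had 2 days and then 3 days of puromycin before their 7 days of culture. In the dasatinib T0 the core, base and lid medians were already at 31.1%, 27.6% and 26.7% of plasmid with the LGR library and at 31.8%, 32.3% and 28.3% with the legacy library. Of the 32 structural start sites, 23 were below 50% of plasmid with each library, compared with 1 in the 100X survival T0 and 0 in the 1000X survival T0. By edgeR, 96 LGR member guides were lower than in the plasmid and 1 was higher, against 3.32% and 0.245% of all guides. For the legacy library it was 98 and 1, against 2.79% and 0.745%. By start site, 19 LGR and 17 legacy were called lower, against 2.33% and 2.2% of all. The lowest LGR phenotypes were PSMD6 at -5.08 ± 0.50, PSMD11 at -4.94 ± 0.71 and PSMA5 at -4.63 ± 0.22 (SD, n = 2 T0 libraries), each against 1 plasmid library.

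PSMD7 was at 12.8% and 17.0% of plasmid in the LGR dasatinib T0 libraries and at 13.4% and 9.90% in the legacy ones. PSMG4, by contrast, was at 101.0% and 90.4% with LGR and at 110.9% and 115.0% with legacy, and PSMB4 was at 94.7% to 107.7%. The 1 legacy guide called higher was the PSMA6 guide at 35761614 on the minus strand, with 77 counts in the legacy plasmid and 112 and 106 at T0. The 1 LGR guide called higher was the PSMD10 guide at 107334281 on the minus strand. The PSMA6 guide was the scarcest PSMA6 guide in that plasmid, where the others had 1165 to 2339 counts. Setting the LGR dasatinib T0 directly against the LGR 100X survival T0, 95 member guides were lower and 2 higher by edgeR, against 3.08% and 0.667% of all guides. These T0 samples came from different infections and differ in depth, and the schedules above differ too. Their parts in the difference cannot be told apart. The LGR plasmid was run on a HiSeq, whereas the paper reports a NextSeq for the screens. In the LGR plasmid comparisons the sequencer therefore cannot be told apart from the stage. The legacy plasmid was run on a NextSeq. The K562 libraries were prepared separately from genomic DNA, which cannot be told apart from the stage in any plasmid comparison.

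In the titration, median levels at 50X and above lay between those of the survival T0 and the dasatinib T0. With LGR at 50X, 100X and 200X, the core median was 66.3%, 65.9% and 65.1% of plasmid, the base 67.3%, 69.4% and 68.6% and the lid 71.0%, 65.9% and 69.5%. With the legacy library at 50X, 100X and 200X the core was at 71.0%, 67.4% and 55.0%, the base at 65.4%, 55.4% and 51.9% and the lid at 66.0%, 62.2% and 58.3%. PSMC4 was the lowest structural start site at LGR 200X, with 32.0% and 34.6% in the 2 cultures, and had 22.5% and 20.4% at legacy 200X. At 10X the core, base and lid medians were 21.5%, 49.1% and 38.7% with LGR and 77.9%, 51.1% and 67.7% with legacy. These are medians of start-site means over both cultures, and some lay outside the medians of the single cultures. On the log2 scale the LGR core was -2.218, with -1.691 and -1.681 in the cultures. The LGR base was -1.028, with -1.635 and -1.477, and the legacy core -0.3596, with -0.2632 and -0.2254. The LGR lid and the legacy base and lid lay between their cultures. The 10X cultures diverged: PSMB4 was at 25.9% in 1 legacy culture and at 152.4% in the other, and PSMG4 at 70.03% and 157.4% with LGR. The chi-square per degree of freedom between 10X cultures was 51.4 for LGR and 86.7 for legacy, so 10X levels of single genes have little precision. No test was made on the titration.

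From T0 to the DMSO endpoint, structural guides went on falling from a low base. The LGR core, base and lid medians went to 4.74%, 4.22% and 6.91% of plasmid and the legacy medians to 6.77%, 5.43% and 8.68%. Of the tested member guides, 70 of 236 LGR guides were lower than T0 and 1 higher, against 7.42% and 0.535% of all guides, and 75 of 231 legacy guides were lower and none higher, against 6.88% and 0.62%. A start site needed 3 guides with a mean of at least 50 counts in either arm to be scored, so only 17 structural start sites with LGR and 19 with legacy had a value. Among the scored start sites 6 of 35 were called lower with LGR and 11 of 37 with legacy, against 5.69% and 5.21% of all. The unscored start sites were all structural and include PSMD7, PSMB2 and PSMA1. The LGR guide that rose was a PSMB10 guide, at 67970732 on the plus strand, with 108 and 81 counts at T0 and 172 and 170 in DMSO (edgeR log2 change 1.01, adjusted p = 0.0174).

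The LGR calls were PSMD4 at -4.71, PSMD8 at -2.38, PSMD3 at -2.29, PSMA7 at -2.23, PSMB7 at -1.50 and PSMD13 at -1.16. The legacy calls among structural genes included PSMC6 at -3.57, PSMA7 at -3.23, PSMD4 at -2.86 and PSMA4 at -2.53. PSMD4, with 4 of its 5 guides lower at T0 already, was at 37.6% and 36.0% of plasmid in the LGR T0 libraries and at 2.05% and 1.92% in DMSO. For legacy it went from 38.4% and 33.3% to 6.69% and 4.40%, again without overlap. PSMB4 was at 92.8% and 113.4% of plasmid in LGR DMSO and at 97.6% and 98.6% in legacy DMSO. Leaving out T0 library A or B lowered the LGR count from 71 called guides to 7 or 9 and the legacy count from 75 to 27 either way, with a single T0 library then assumed to vary like DMSO.

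Outside the structural group, PSMG4 had the largest phenotype between T0 and DMSO with legacy, and with LGR it came after PSMG3 P1. Its level was 24.3% and 24.99% of plasmid in LGR DMSO and 14.2% and 9.997% in legacy DMSO, below every T0 value given above. The phenotype was -4.86 ± 0.32 with legacy (SD, n = 2, exact Mann-Whitney adjusted p = 0.00267) and -2.93 ± 0.04 with LGR (adjusted p = 0.0637), and 4 of 5 guides were lower by edgeR with each library. PSMG3 P1 was at 19.95% and 22.8% in LGR DMSO and at 24.4% and 33.0% in legacy DMSO, with phenotypes of -3.31 and -3.18 that missed the start-site test. PSME3 was called with legacy at -2.60 and not with LGR at -0.29, a difference not tested at start-site level. All 5 PSME3 guides were scored with legacy. Of the 20 guides of the PSME caps, 20 were scored with legacy and 19 with LGR. The 2 PSME3 values may therefore rest on different sets of guides. At T0 over plasmid PSME3 was already called lower with LGR, at -1.18 with 2 guides lower (exact Mann-Whitney adjusted p = 0.00425). With legacy it was not called there, at -0.53 with 1 guide lower.

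The libraries were compared guide by guide for the DMSO over T0 change. Of 243 member guides tested, 1 was lower and 1 higher with legacy than with LGR, against 0.0641% and 0.0796% of all guides. The first was the PSMG4 guide at 3259244 on the plus strand, with a difference of -3.33 on the log2 scale (edgeR adjusted p = 0.00179). It had 171 and 119 counts at LGR T0 and 60 and 60 in LGR DMSO, but 403 and 328 at legacy T0 and 15 and 16 in legacy DMSO. The second was the PSMA5 guide at 109968969 on the minus strand, with a difference of 5.74 (edgeR adjusted p = 0.0458). It had 59 and 48 counts at LGR T0 and 2 and 0 in LGR DMSO, and 33 and 20 at legacy T0 and 26 and 35 in legacy DMSO. Leaving out legacy T0 library A or LGR T0 library B left no member guide called, and leaving out any other single library gave 1 to 4.

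The comparisons of dasatinib with DMSO show which guides differed in level between treated and vehicle cultures. The paper reports that dasatinib reduced viability, so the arms may have grown by different amounts. A changed response to the drug and a difference in growth cannot be told apart here. These comparisons share their DMSO libraries with DMSO over T0, so a high value in one goes with a low value in the other. No member start site was called with either library among the 27 scored, where 0.382% and 0.593% of all LGR start sites and 0.482% and 0.629% of all legacy start sites were called lower and higher. By edgeR no LGR member guide of 188 tested was called, against 0.00393% lower and 0.0954% higher of all guides, with 12 lower and 14 higher at an unadjusted p under 0.05 and 1 in each direction by DESeq2. With legacy, 5 of 201 member guides were higher and none lower, against 0.572% and 0.0349% of all. Of the 32 structural start sites 23 could not be scored in either library. The core, base and lid medians in DASA libraries were 9.34%, 6.31% and 7.04% of plasmid with LGR and 8.28%, 7.38% and 10.8% with legacy.

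Of those 5 legacy guides, which are singled out after their values were seen, 3 target PSMG4. Its level was 87.5% and 86.9% of plasmid in LGR DASA against 24.3% and 24.99% in LGR DMSO, and 92.9% and 65.9% in legacy DASA against 14.2% and 9.997% in legacy DMSO. The DASA and DMSO libraries did not overlap, and the 4 DASA levels lay below the T0 levels of the same library. The phenotype was 2.07 with LGR (SD of the 2 DASA libraries 0.34, of the 2 DMSO libraries 0.49) and 3.31 with legacy (SD 0.21 and 0.10). It missed the exact Mann-Whitney test (adjusted p = 0.236 and 0.12). The alternative limma fit over libraries on the mean of its 4 scored guides called it higher with both libraries, at 1.58 (SE 0.22, adjusted p = 0.0103) with LGR and 2.52 (SE 0.24, adjusted p = 0.00254) with legacy. That fit called 1.45% and 1.23% of all start sites higher and no other member. A guide was scored with a mean of 50 counts in either arm. With each library some of the scored PSMG4 guides reached it only in DASA, the arm where they were high. The phenotype and this fit are therefore not independent of that choice of guides.

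Guide by guide, the plus-strand PSMG4 guide at 3259244 had 60 and 60 counts in LGR DMSO and 150 and 141 in LGR DASA, and 15 and 16 in legacy DMSO and 181 and 98 in legacy DASA (edgeR log2 change 3.37 with legacy, adjusted p = 0.0338). The minus-strand guide at 3259250 had 39 and 30 in LGR DMSO and 51 and 155 in LGR DASA, and 7 and 4 in legacy DMSO and 133 and 106 in legacy DASA (4.61, adjusted p = 0.0158). The plus-strand guide at 3259423 had 6 and 37 in LGR DMSO and 101 and 98 in LGR DASA, and 79 and 91 in legacy DMSO and 233 and 395 in legacy DASA (2.05, adjusted p = 0.0447). For these 3 guides DASA exceeded DMSO in every library. The minus-strand guide at 3259227 had 15 and 4 in LGR DMSO and 46 and 42 in LGR DASA, and 5 and 3 in legacy DMSO and 45 and 34 in legacy DASA, also without overlap. Its legacy change of 3.46 did not pass (adjusted p = 0.192). With LGR the guides at 3259250 and 3259423 were scored for the start site only through their DASA counts. With legacy this held for those at 3259244 and 3259250. In the legacy edgeR test, the guides at 3259250 and 3259227 reached the filter of 10 counts only in DASA, the arm where they were high. Their edgeR values are therefore not independent of that filter.

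The fifth PSMG4 guide, at 3259550 on the plus strand, was not called in any of the 9 comparisons. It had 65 and 70 counts in LGR DMSO and 95 and 38 in LGR DASA, and 182 and 69 in legacy DMSO and 149 and 81 in legacy DASA, with overlap. In the 1000X survival screen it had 493 counts at T0 and 537, 488 and 689 at Tf. With LGR none of the 5 guides passed the dasatinib test, and the lowest unadjusted p was 0.00575. The dasatinib change of PSMG4 guides did not differ between libraries past the threshold, the smallest adjusted p of any of the 213 member guides tested being 0.288 by edgeR, where 0.000977% of all guides were lower and 0.00195% higher with legacy.

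The other guides called higher with legacy were a PSMB1 and a PSME2 guide. The PSMB1 guide at 170861935 on the minus strand had 120 and 162 counts in DMSO and 529 and 1493 in DASA (edgeR log2 change 2.99, adjusted p = 0.0178). With LGR it had 41 and 73 in DMSO and 187 and 86 in DASA, and did not pass (adjusted p = 0.333). The PSME2 guide at 24615521 on the plus strand had 128 and 109 in DMSO and 345 and 387 in DASA (1.81, adjusted p = 0.0388), against 144 and 130 and then 210 and 155 with LGR. No second guide of PSMB1 or PSME2 was called.

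The DASA libraries differed more between themselves than the DMSO libraries. The chi-square per degree of freedom between the 2 DASA libraries was 29.1 and 22.2 in the 2 screens, against 6.91 and 6.73 between the DMSO libraries. Leaving out DMSO library 1 or 2 gave 2 or 1 called member guides with legacy in place of 5, and leaving out DASA library 1 or 2 gave 30 or 33 called member guides with legacy and 31 or 36 with LGR. That increase was not particular to the members. Without LGR DASA library 1, 9208 guides of the whole library were lower and 12160 higher of 101433 tested, as were 385 of 1888 non-targeting guides, beside 31 of 181 members. Without legacy DASA library 1 it was 6192 lower and 9705 higher of 99971, and 288 of 1860 non-targeting guides, beside 30 of 191 members.

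No member start site was called higher by the Mann-Whitney test in any of the 9 comparisons. The share of all start sites called higher was 0.00494%, 0.0988% and 0.089% for T0 over plasmid in the LGR 100X survival, LGR dasatinib and legacy dasatinib screens. It was 0.119% and 0.0593% for Tf over T0 at 1000X and 100X, and 0.0848% and 0.116% for DMSO over T0 with LGR and legacy.

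The limma fit, which tests the mean of all scored guides across libraries, called more start sites lower over the whole library in these comparisons. For T0 over plasmid it called 13, 29 and 25 member start sites lower in the LGR 100X survival, LGR dasatinib and legacy dasatinib screens, against 1.9%, 5.79% and 3.4% of all. For Tf over T0 it called 33 at each coverage, against 16.9% at 1000X and 12.3% at 100X. For DMSO over T0 it called 17 with LGR and 20 with legacy, against 14.9% and 12.8%. It called no member higher in these 7 comparisons, where, in the same order, 0.0988%, 0.0642%, 0.356%, 0.361%, 0.00988%, 0.0748% and 0.253% of all start sites were called higher.

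Other genes of the pathway were examined beside the members, as 26 genes with 28 start sites. At 1000X 3 of 28 start sites were called lower and none higher, where 7.17% of all start sites were lower, and the median of the 28 was -0.05. Those named first below are the ones called. SHFM1, the smallest lid subunit, had -6.36 ± 0.62 at 1000X and -7.04 ± 1.496 at 100X with all 5 guides lower each time. POMP, the chaperone that matures the core, had -4.03 ± 0.38 and -5.42 ± 0.20, and UBA1 P1, the main ubiquitin-activating enzyme, had -2.17 ± 0.07 and -2.26 ± 0.22. VCP, the segregase that feeds substrates to the proteasome, had -6.09 ± 0.48 with 3 of 5 guides lower and missed the start-site test at 1000X (exact Mann-Whitney adjusted p = 0.416). It was called in the legacy T0 at -3.13. AKIRIN2, which brings proteasomes into the nucleus, was called at 100X only, at -0.56, with no guide called. ADRM1, a ubiquitin receptor beside PSMD4, had -0.30, and USP14, a proteasome-bound deubiquitinase, had -0.21. Neither was called in the survival screens.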

How the data were processed

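Guide counts of 40 libraries were used: the LGR and legacy CRISPRi plasmids and 38 K562 libraries. The authors counted reads against the guide list with ScreenProcessing and deposited whole-number counts per guide; bcl2fastq and hg19 stand in the submitters' processing notes, without versions. Totals were 15739255 to 170431221 counts per library. Guides with a count of at least 10 in a library of the comparison were tested with edgeR 4.0.16 (TMM, quasi-likelihood, R 4.3.3), all guides in the fit. For start sites, log2 CPM (a count of 0 set to 1) were centred on the non-targeting median, guides with a mean of 50 counts in either arm kept, and tested as given in the text (scipy 1.17.1). DESeq2 1.42.0, limma 3.58.1 and other filters were alternatives. Intervals would cover counting error only and were not used. Replicate numbers did not pair samples: correlations of their deviations were -4.91e-05 to 0.00169. No libraries were duplicates (chi-square per degree of freedom 2.75 to 86.7). Tests were checked on simulated data. Pilot pools, CRISPRa libraries and an LGR plasmid run with numbered guides were not used here. The members and gene lists were chosen with earlier results of these data known, and the T0 against T0 comparison after seeing the data. Any member gene could be named, a pathway gene only where called, or for contrast after its values were seen.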

Additional observations from a re-analysis of the deposited data

Results flagged for a closer look

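The level of PSMD10, a base chaperone, in the LGR 100X Tf libraries was -0.0452, -0.0406, -0.0443 and -0.232 on the log2 scale, relative to the non-targeting median. Library 4 stood apart from the other 3, with a gap to its nearest neighbour of 0.976 of the whole range, above Dixon's critical value for 4 samples. The 50 start sites were examined this way, and chance marks about 1 in 20 groups.

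The DMSO over T0 change differed between the legacy and LGR libraries for 2 guides in a test of the difference: the PSMA5 guide at 109968969, by 5.74 on the log2 scale (edgeR adjusted p = 0.046), and the PSMG4 guide at 3259244, by -3.33 (edgeR adjusted p = 0.0018). Each library had its own infection, and the other tested guides of PSMA5 and PSMG4 did not pass this test.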

How the results depend on the processing

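No called value changed direction under any alternative. The replicate block, for a paired fit by replicate number, gave 2 member guides for dasatinib over DMSO with LGR (0 without the block), 6 with legacy (5 without) and 117 for Tf over T0 at 100X (111 without); it raised the calls over all guides with LGR from 4 lower and 97 higher to 189 and 785. DESeq2 gave 2 for T0 over plasmid at 100X (12 with edgeR), 2 for LGR dasatinib and 5 for the legacy against LGR difference in DMSO over T0 (2 with edgeR). Without TMM the legacy dasatinib count was 3 and that difference 1. For start sites, limma gave 13 (2 by the Mann-Whitney test) and 29 (19) for T0 over plasmid at 100X survival and LGR dasatinib, 17 (6) and 20 (11) for DMSO over T0 with LGR and legacy, and 1 and 1 (0 and 0) for dasatinib. A guide filter of 10 counts gave 20 and 19 for DMSO over T0 and 2 and 2 for dasatinib. Shares over all start sites under limma are given above. Apart from the replicate block with LGR, the other alternatives here are member counts without direction or share over the whole library. They show only how the calls depend on the setting and are not results about the members.

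Leaving out 1 library at a time gave 131 to 132 guides for Tf over T0 at 1000X and 42 to 113 at 100X (42 and 51 without T0 library 1 and 2), 7 to 89 and 27 to 87 for DMSO over T0 with LGR and legacy, 0 to 36 and 1 to 33 for dasatinib, and 0 to 0, 0 to 4 and 0 to 0 for the differences. The upper ends for dasatinib, 36 and 33, came from fits without DASA library 2, which called 8632 guides lower and 11838 higher of 101429 with LGR and 6089 and 9465 of 99904 with legacy, including 379 of 1889 and 295 of 1861 non-targeting guides. For start sites it gave 1 to 2, 16 to 18 and 14 to 16 for T0 over plasmid, 23 to 26 and 26 to 27 for Tf over T0, 5 to 8 and 8 to 11 for DMSO over T0, and 0 to 0 and 0 to 1 for dasatinib. Core, base and lid medians moved by -0.161 to 0.138 with centring on the targeting guides, by -0.823 to 0.915 with 1 library left out and by -0.218 to 2.11 with the mean of all guides, which is nearer 0 by construction where only some guides fell. Under that mean the base and lid at the 100X survival T0 went from -0.68 and -0.53 to -0.27 and -0.31, the lid at the dasatinib T0 from -3.14 to -1.90 with LGR and from -3.01 to -1.82 with legacy, and the core in DMSO over T0 from -1.55 to -0.98 with LGR and from -2.31 to -1.45 with legacy. A lower filter scores more depleted start sites by construction; other causes were not tested. In dasatinib over DMSO 23 of 32 structural start sites had too few counts to be scored with either library.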
